A study of Homo sapiens with 3 samples.

Results

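EP300 is a histone acetyltransferase and transcriptional coactivator, and its chromatin immunoprecipitation peaks (ChIP-seq) were examined here at 9 genes of the PRDM family: PRDM1, PRDM2, PRDM4, PRDM6, PRDM8, PRDM12, PRDM13, PRDM15 and PRDM16. The members were picked from these same data for many distal peaks, so their numbers, positions and strengths are descriptions and no test was made of them. Peaks were taken where the authors' annotation named a member as the gene, and rows of the same interval were joined. This gave 52 of 65276 peaks in replicate 1 and 56 of 64896 in replicate 2. Overlapping peaks of both replicates were merged into 41 regions, out of 46263 in the whole series. By these counts the reason for the choice held for a single member: PRDM16 held 15 of the 21 distal regions, and no other member held more than 2.

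The EP300 group has 2 samples of wild-type H9, an established human embryonic stem cell line, in a naive state. The cells grew on mouse embryonic fibroblast feeders in N2B27 medium with PD0325901, XAV939, Gö 6983 and human LIF at 10 ng/mL. The input group has 1 sample of the same cells without antibody, which is not analysed here by itself. H9 is a single line, and nothing states that the EP300 samples were separate cultures, which leaves their spread possibly technical. Of 10 naive marker genes, 9 had a promoter region and ARGFX had none, and of 8 fibroblast genes 5 had one, beside 67.9% of all coding genes. Peaks do not measure expression, so the state of the cells was not checked by these counts. Read depth is unknown because the deposited tables hold no read counts.

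PRDM proteins carry a PR domain, a relative of the SET domain of histone methyltransferases, and most carry zinc fingers that bind DNA. They act as switches of cell fate, some through their own methyltransferase activity and others by recruiting corepressors. PRDM1 (BLIMP1) directs the specification of germ cells in mouse embryos. PRDM14, a family gene outside the 9 members, maintains human pluripotency. Histone acetylation by EP300 marks active promoters and enhancers.

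The upstream windows of 5 start sites are shown because they separate starts with a strong EP300 peak over them from starts with none. PRDM2 and PRDM15 each had another start, not shown, whose window no peak of either replicate touched. Each window shown is the 250 bases before a RefSeq start site of GRCh38.p14, written on the strand of the gene. Capitals mark the GC box GGGCGG, or its reverse complement CCGCCC, and the E-box CACGTG, and no marked motif overlaps another. The first is PRDM15 at chr21:41879345-41879594 (minus strand), then PRDM2 at chr1:13699938-13700187 (plus), PRDM4 at chr12:107761138-107761387 (minus), PRDM13 at chr6:99606583-99606832 (plus) and PRDM8 at chr4:80185020-80185269 (plus).
PRDM15: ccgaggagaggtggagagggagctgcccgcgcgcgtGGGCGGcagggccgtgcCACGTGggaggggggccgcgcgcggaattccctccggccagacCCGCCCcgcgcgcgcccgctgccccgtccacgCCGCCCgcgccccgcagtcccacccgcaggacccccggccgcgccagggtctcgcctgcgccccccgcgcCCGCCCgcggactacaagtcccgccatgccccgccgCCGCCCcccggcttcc
PRDM2: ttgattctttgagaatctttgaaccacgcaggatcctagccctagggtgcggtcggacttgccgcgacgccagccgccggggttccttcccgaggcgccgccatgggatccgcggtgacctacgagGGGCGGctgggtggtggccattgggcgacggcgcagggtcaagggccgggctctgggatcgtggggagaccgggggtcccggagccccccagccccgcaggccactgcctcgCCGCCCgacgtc
PRDM4: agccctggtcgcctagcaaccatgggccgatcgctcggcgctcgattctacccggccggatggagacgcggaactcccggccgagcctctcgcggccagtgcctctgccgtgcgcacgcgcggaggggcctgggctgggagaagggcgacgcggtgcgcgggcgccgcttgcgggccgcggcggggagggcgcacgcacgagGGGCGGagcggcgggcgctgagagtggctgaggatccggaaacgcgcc
PRDM13: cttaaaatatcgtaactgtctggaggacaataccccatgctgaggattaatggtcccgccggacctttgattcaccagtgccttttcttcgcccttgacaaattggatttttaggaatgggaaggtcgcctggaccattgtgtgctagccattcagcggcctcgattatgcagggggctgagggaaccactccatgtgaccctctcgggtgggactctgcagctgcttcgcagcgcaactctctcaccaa
PRDM8: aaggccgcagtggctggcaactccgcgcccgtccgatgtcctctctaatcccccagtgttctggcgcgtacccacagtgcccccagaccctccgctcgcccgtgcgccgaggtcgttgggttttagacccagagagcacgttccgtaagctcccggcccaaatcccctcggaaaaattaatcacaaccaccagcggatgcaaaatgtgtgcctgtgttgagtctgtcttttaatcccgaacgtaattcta

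Peaks of both replicates covered the PRDM15 and PRDM2 windows in full. The PRDM4 window was covered over 250 bases in replicate 1 and 162 in replicate 2. No peak of either replicate touched the PRDM13 or PRDM8 window. Of the 5 windows, the covered ones held more G and C, at 82.8% for PRDM15, 76.0% for PRDM4 and 70.8% for PRDM2, against 57.6% for PRDM8 and 52.8% for PRDM13. This order did not hold over all 12 windows of the members. The 6 that overlapped a region ran from 48.8% at a PRDM1 start to 82.8%, and the 6 that did not ran from 36.8% at a PRDM2 start to 66.0% at a PRDM8 start, so the groups overlapped. The median of all 34961 windows in the table was 58.4%. The PRDM15 window held 5 GC boxes, the PRDM2 window 2 and the PRDM4 window 1. The PRDM13 and PRDM8 windows held none of either strand. These 5 windows were picked by their peaks, so the contrast is a description. Among the 12 windows, none without a region held a GC box. The PRDM12 window, covered in full in both replicates, also held none. Over all windows, those with and without a region were not counted apart, so nothing is read from this. A GC box was present in 42.7% of all windows, and an E-box, found once in the PRDM15 window, in 6.35%. A TFAP2 palindrome (GCCNNNGGC), an ETS site (CCGGAAGT), a CRE (TGACGTCA), an octamer (ATGCAAAT), a SOX site (CCATTGTT) and a TEAD site (ACATTCCA) were also searched on both strands, and none of the 5 windows held one. Their shares of all windows ran from 0.738% for the SOX site to 19.8% for the palindrome. Outside the 5, both PRDM1 windows and the PRDM2 window at chr1:13749165-13749414 held a palindrome, and another PRDM2 window held an octamer. RefSeq windows were given for 7 of the 9 members, with PRDM6 and PRDM16 not among them.

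A promoter region, within 3 kb of any start site in the authors' annotation, was found at 8 of the 9 members, against 67.9% of 19974 coding genes. PRDM13 was the exception. All 9 members have peaks because they were picked from them. The coding genes include those without any, so nothing is read from the difference. The strongest promoter region was at PRDM15, a zinc finger regulator that in mouse controls signalling genes of naive pluripotency. Its region at chr21:41878230-41880092 reached a fold enrichment of 26.7 (replicate 1) and 24.1 (replicate 2). Fold enrichment is the authors' own value for a peak, from lists named against input. Each region was ranked by its percentile in either list, whichever was lower. PRDM15 stood at percentile 99.5, and its summits lay at -224 and -231 bp from the start site, inside the upstream window shown above.

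The next promoter regions by rank were at PRDM16, PRDM2 and PRDM4. PRDM16, in mouse a regulator of brown fat and of blood stem cells, had 18.6 in replicate 1 and 17.7 in replicate 2 at chr1:3393076-3394896, near an internal start site. PRDM2, which encodes the RIZ proteins, had 12.0 and 15.1 at its 5' end (chr1:13699565-13701008), with summits 143 and 187 bp past the start. These and PRDM15 were the 3 regions of the 41 above percentile 90. PRDM4, which encodes a zinc finger protein that binds the p75 neurotrophin receptor, had 8.29 and 10.1 (chr12:107760372-107761529), with summits 282 and 258 bp past the start.

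Promoter regions of PRDM12, PRDM6, PRDM8 and PRDM1 had lower values than the PRDM15 and PRDM2 5' regions in both replicates. PRDM12, needed for pain-sensing neurons, carried 2, at chr9:130662954-130665368 with fold enrichment 6.02 and 5.10, and at chr9:130665728-130667303 with 7.47 and 10.1. PRDM6, in mouse a regulator of smooth muscle, had 5.35 and 4.80 over its 5' end (chr5:123089191-123090663), and a weaker region, 3.83 and 3.13, at an internal start (chr5:123099509-123100056). PRDM8, in mouse a neural and retinal regulator, had a single region with fold enrichment 4.77 and 4.68 (chr4:80183594-80184234), 1036 bp upstream of its RefSeq start, at a start in the authors' annotation only. PRDM1 had 3.97 and 3.01 at chr6:106098119-106099465 and 3.80 and 2.84 at chr6:105994655-105995154, percentiles 11.9 and 7.74. Another PRDM1 start (chr6:106086199-106086686) had a peak of 5.05 in replicate 1 alone, the highest value of any PRDM peak found in a single replicate.

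PRDM2 and PRDM15, like PRDM1, PRDM6 and PRDM16, carried promoter regions at more than 1 start site. PRDM2 had a second region at chr1:13748732-13750149, 48.5 kb inside the gene, with fold enrichment 6.52 and 5.62, over an internal start. PRDM15 had a second at chr21:41836088-41836722, 42.6 kb from its 5' end, with 6.48 and 5.57. The 20 promoter regions of the members had median fold enrichments of 4.86 (replicate 1) and 4.95 (replicate 2), against 6.78 and 6.88 over all 25269 promoter regions of the series. Without PRDM16 the medians of the other 12 were 6.25 and 5.33.

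Regions farther than 3 kb from the nearest start site of the assigned gene, to a limit of 100 kb, were called distal. At least 1 was found at 6 of the 9 members, against 20.3% of coding genes. The members were picked on this measure, and nothing is read from the difference. PRDM4, PRDM8 and PRDM15 had none that was found in both replicates. PRDM13 had 2, a number that 8.48% of coding genes reached, and PRDM1, PRDM2, PRDM6 and PRDM12 had 1 each. PRDM16 had 15, a number reached by 0.0951% of coding genes, or 19 genes with PRDM16 itself. Among those with the same number, the 4 longest were HYDIN, ZNF469, PRKAG2 and ZMIZ1.

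**Figure D1:**
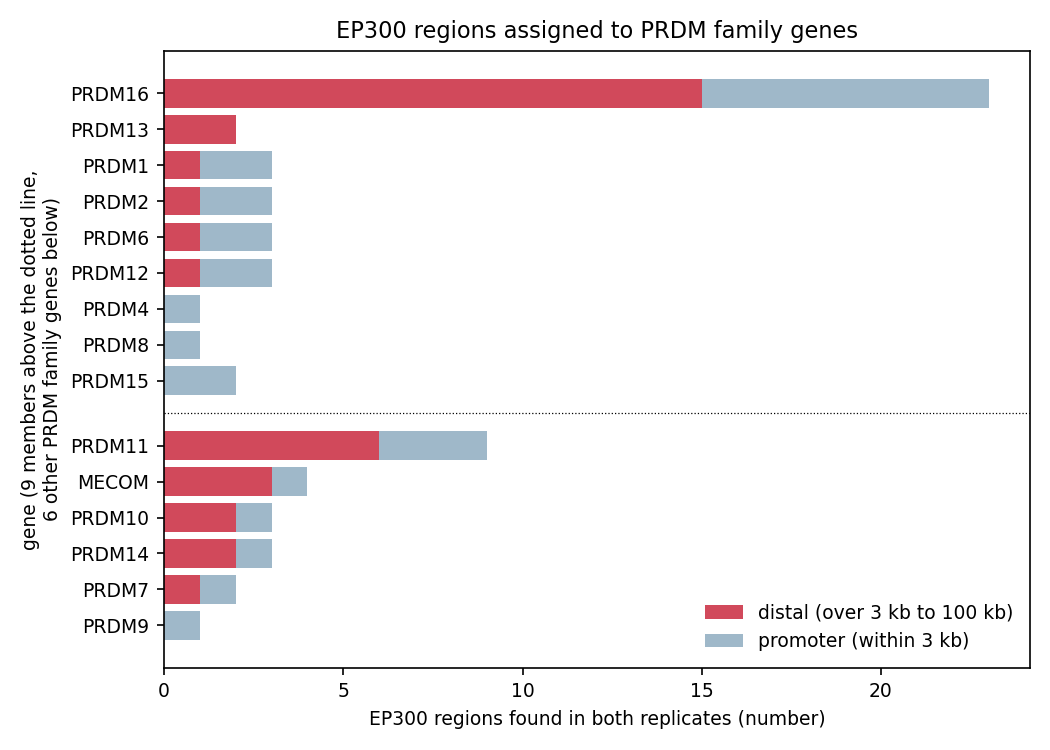
Number of EP300 regions found in both replicates (horizontal axis) for the 9 members and, below the dotted line, 6 other PRDM family genes, split into distal and promoter regions. PRDM16 has 15 distal and 8 promoter regions, and PRDM11, with 6 distal regions, comes next.

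Outside PRDM16 there were 6 distal regions, at 5 members. At PRDM13, in mouse a regulator of retinal and spinal interneurons, a region of 2061 bp lay over the 3' untranslated region (chr6:99612816-99614876), 5.98 kb past the start, with fold enrichment 7.08 and 9.10. A second, at chr6:99618859-99619372 beyond the gene end, had 2.62 and 2.21 and percentile 0.179, the lowest of the 41 regions. At PRDM6 an intron 2 region (chr5:123094949-123095789) had 6.89 and 8.67, higher in both replicates than its promoter regions.

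At PRDM12 the distal region spanned 2251 bp (chr9:130659251-130661501), with fold enrichment 7.77 and 7.30, and its near edge lay 3.09 kb upstream, just past the 3 kb limit. The PRDM2 region at chr1:13828790-13829642 lay beyond the gene's 3' end and had 8.38 in replicate 1 and 5.20 in replicate 2. It was the most distant of the 21, at 57.1 kb from the nearest PRDM2 start. The PRDM1 region at chr6:105981255-105981995 lay 11.5 kb upstream, with 3.54 and 5.03. Just inside the limit was a PRDM16 region at 2.37 kb (4.70 and 6.26), and just outside, after PRDM12, were PRDM16 regions at 3.14 kb with 9.77 and 7.51 and with 3.47 and 3.92.

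**Figure D2:**
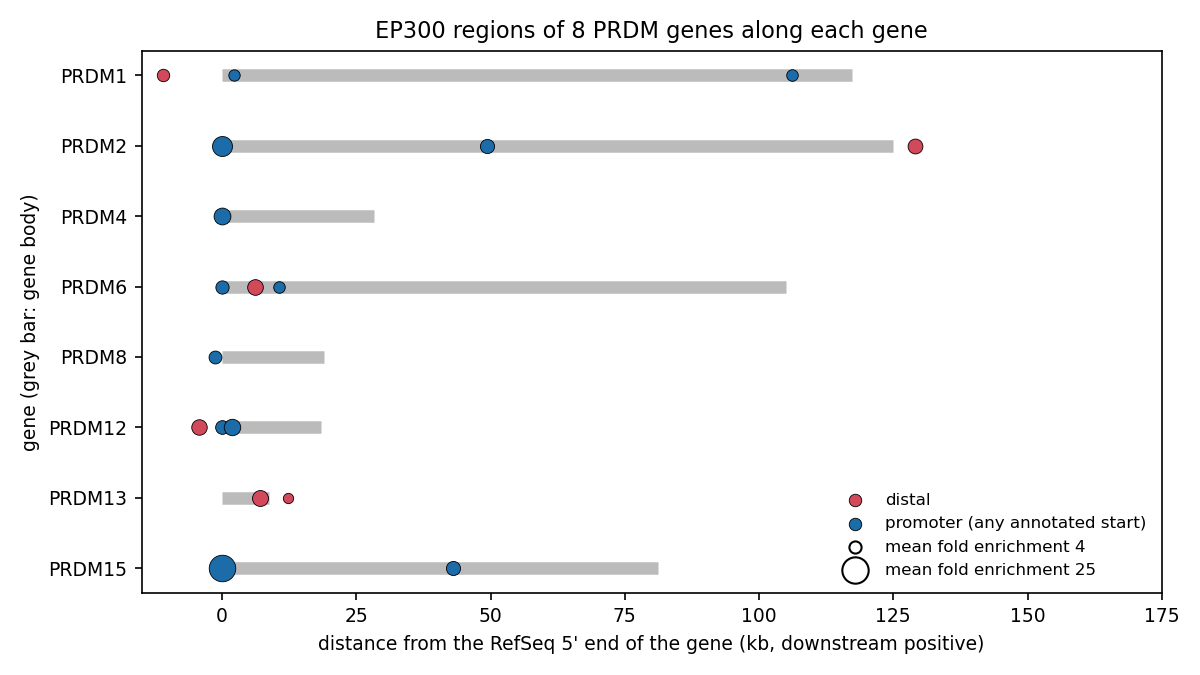
Regions found in both replicates for the 8 members other than PRDM16, by distance from the RefSeq 5' end in kb. Grey bars are gene bodies and circle area grows with the mean fold enrichment of the 2 replicates; the largest circle is the PRDM15 5' end, and the distal regions of PRDM1, PRDM2 and PRDM12 and the weaker one of PRDM13 lie outside the gene bodies.

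PRDM16 lies on the plus strand of chromosome 1 (3069203 to 3438621) and spans 369 kb. Its 23 assigned regions fell into 3 blocks, separated by over 50 kb. The first block, of 4 regions, began 0.432 kb past the 5' end. It held the 5' promoter region at chr1:3069635-3071638, with fold enrichment 4.72 and 5.39. Distal regions of intron 1 followed at 3.15 kb (3.47 and 3.92), 4.17 kb (4.32 and 4.61) and 21.0 kb (2.76 and 3.52) from that end. The last of these stood at percentile 6.31. No region of the first block exceeded 4.72 in replicate 1 or 5.39 in replicate 2.

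The second block held 8 regions, from 153 to 186 kb past the 5' end. Of these, 4 were distal. The strongest distal region of PRDM16 was among them, at chr1:3247272-3248234 in intron 3, with fold enrichment 9.77 and 7.51 and percentile 76.6. An intron 2 region at chr1:3221895-3223276 ranked second among the distal regions, with 5.80 and 6.61. The other 2 lay in intron 3 at 182 kb (4.27 and 3.01) and 186 kb (2.86 and 2.85), at percentiles 11.9 and 7.94. The 4 promoter regions of this block, near internal starts, ranged from 2.81 to 4.70 in replicate 1 and from 2.80 to 6.26 in replicate 2.

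The third block held 11 regions, 8 of them distal, from 322 kb to just past the 3' end of the gene. The third distal region by rank was an exon 15 region at chr1:3430412-3431805, with fold enrichment 5.78 and 5.64. An intron 8 region at chr1:3406697-3407976 had 6.56 and 5.21, and an exon 7 region at chr1:3404113-3406010 had 4.32 and 5.01. Weaker regions followed in intron 8 (2.55 and 3.13), exon 9 (3.56 and 3.06) and intron 10 (2.58 and 3.60). Their percentiles were 2.23, 13.2 and 3.37. In replicate 1 the weaker intron 8 region and the intron 10 region had -log10 q-values of 1.54 and 1.70, near the lowest of that list, 1.30. The intron 4 region at 322 kb had 4.44 and 4.41, and the region past the gene end, at chr1:3439396-3440330, had 3.68 and 3.76. The internal promoter region of 18.6 and 17.7 named above stood in this block, 324 kb past the 5' end, and exceeded every distal region of the 9 members in both replicates.

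What counted as distal at PRDM16 depended on internal start sites. The authors' distances were to the nearest of several PRDM16 transcripts, and the 23 regions were measured from 6 of them. Measured from the RefSeq 5' end instead, 22 regions lay beyond 3 kb, since 7 of the 8 promoter regions sat at internal starts. The gene assignment moved the count further. The gene body overlapped 55 regions, of which 22 were assigned to PRDM16 and 33 to 6 other genes. MIR4251, a microRNA gene, took 7, and 5 genes given only by their Ensembl IDs took the rest, with ENSG00000279839 taking 10 and ENSG00000272235 taking 6.

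Some regions assigned away from PRDM16 were stronger than its own distal regions. The region at chr1:3351755-3358829, assigned to ENSG00000286518, was 7075 bp long, with fold enrichment 16.5 and 14.0. The region at chr1:3104058-3107444, assigned to MIR4251, had 10.4 and 12.48. Regions covered 20.6% of the gene body, with a median gap of 3.34 kb and a largest gap of 22.4 kb, and regions carrying other names lay in the spaces between the 3 blocks. The median fold enrichment over the 55 was 3.85 in replicate 1 and 4.05 in replicate 2.

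**Figure D3:**
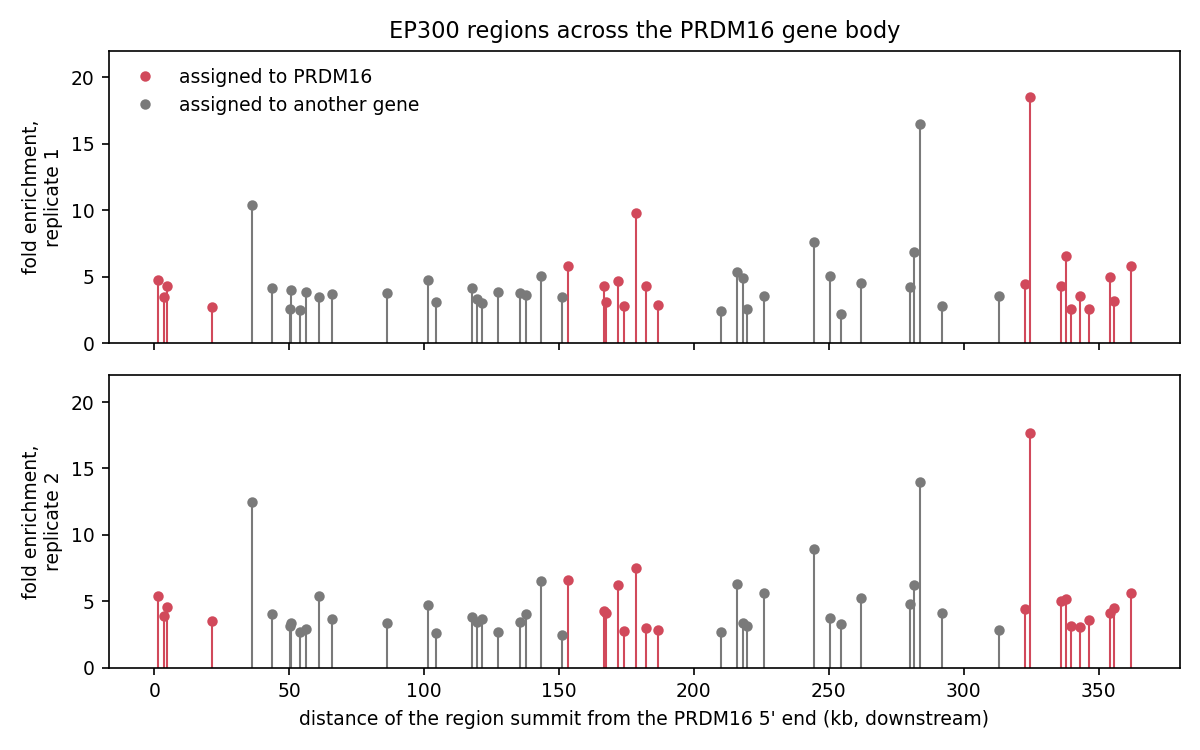
Fold enrichment in replicate 1 (top) and replicate 2 (bottom) of the 55 regions that overlap PRDM16, by distance of the mean summit from the 5' end in kb. The 22 regions assigned to PRDM16 stand in 3 blocks, and the 33 assigned to other genes fill the space between them; the highest value in both panels is the internal promoter region, 18.6 and 17.7.

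By regions within the gene body PRDM16 stood at rank 3 of all coding genes, after PTPRN2 with 108 and GSE1 with 61, which were named after their values were seen. PRDM16 is shorter than both, and its density was 14.9 regions per 100 kb, against 10.3 at PTPRN2 and 12.0 at GSE1. Among the members the density was higher at PRDM12, at 16.3 per 100 kb from 3 regions in a body of 18.4 kb. The 384 coding genes of 300 to 450 kb, PRDM16 included, had a median of 2 regions in the body, 0.614 per 100 kb. None of these had more regions in the body than PRDM16, and 2 had more distal regions. Of the other members, PRDM12 held a region under another gene's name, at chr9:130680854-130682355 near its 3' end, with fold enrichment 8.45 and 9.15, assigned to EXOSC2.

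Immediately before PRDM16 lies its divergent non-coding gene PRDM16-DT, to which 2 regions were assigned. One, at chr1:3067185-3068928, had fold enrichment 4.90 and 6.44 and ended 275 bp before the PRDM16 start, and the other had 7.31 and 6.34. With regions at most 5 kb apart joined, the largest cluster at PRDM16 held 7 regions, all assigned to it (chr1:3235381-3256440), and 150 of the 32090 clusters in the series held more. At a joining distance 2.5 times as wide, the main setting, PRDM16 regions fell in 4 clusters. The largest of these held 17 regions over 111 kb (chr1:3381866-3493101), 11 of them assigned to PRDM16, and 55 of 25251 clusters held more. It ran well past the 3' end of PRDM16, at 3438621, so its size does not describe the gene alone.

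The distal regions of PRDM16 lay mostly in introns, and those of the other members mostly between genes. Of the 15, 11 were intronic, 3 exonic and 1 intergenic. Of the other 6, 4 were intergenic, 1 was intronic and 1 was in a 3' untranslated region. Over all 20280 distal regions of the series 41.3% were intronic, 5.80% exonic and 47.1% intergenic. Median fold enrichments of the PRDM16 distal regions were 4.27 (replicate 1) and 3.92 (replicate 2), those of the other 6 were 6.98 and 6.25, and those of all distal regions of the series were 4.60 and 4.62. The PRDM16 values ranged from 2.55 to 9.77 in replicate 1 and from 2.85 to 7.51 in replicate 2. The median percentile of the PRDM16 distal regions was 31.4, against 42.0 over all distal regions.

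The share of members' peaks found in both replicates was near that of all peaks. In replicate 1, 42 of 52 (80.8%, Wilson 95% interval 68.1 to 89.2) overlapped a peak of replicate 2, against 74.5% of all peaks. In replicate 2, 42 of 56 (75.0%, 62.3 to 84.5) overlapped one of replicate 1, against 73.9%. These intervals cover counting error only, and peaks of 1 gene are not independent. PRDM16 had 24 distal peaks in each list, and 16 of the 24 (66.7%) were shared in each, against 65.8% and 65.4% of all distal peaks. Each replicate therefore held 8 PRDM16 distal peaks that the other did not, of at most 4.27 fold in replicate 1 and 3.90 in replicate 2. Of the 24 unshared peaks of the members, 18 were at PRDM16. At PRDM13 a promoter peak of 3.31 was seen in replicate 2 alone, and at PRDM15 a distal peak of 4.18 was seen in replicate 2 alone.

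**Figure D4:**
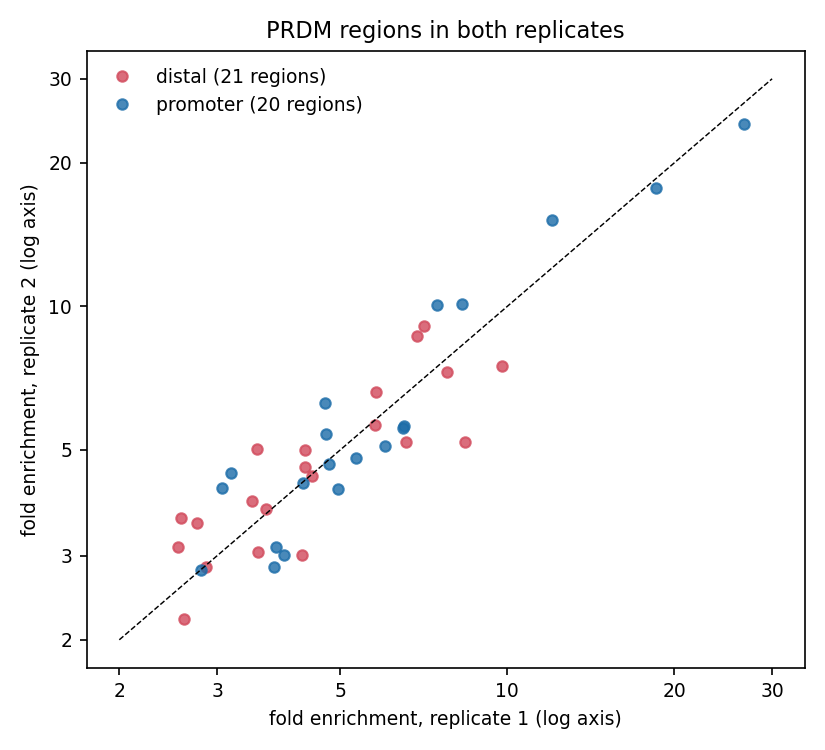
Fold enrichment of the 41 regions in replicate 1 (horizontal) and replicate 2 (vertical), both on log axes, with the dashed line marking equal values. The highest points are the PRDM15, PRDM16 and PRDM2 promoter regions, and no distal region exceeds 9.77 in replicate 1 or 9.10 in replicate 2.

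The 6 other family genes examined had 22 regions, 14 of them distal. All 6 had a promoter region and 5 had a distal region, against 67.9% and 20.3% of coding genes. This list was also chosen with earlier results of these data known, and nothing is read from the difference. PRDM11 had most, with 6 distal and 3 promoter regions, which is more distal regions than any of the 9 members except PRDM16. MECOM, the closest relative of PRDM16, had 3 distal regions over a gene of 580 kb, and 3 regions in its whole body. PRDM10 and PRDM14 had 2 distal regions each, PRDM7 had 1 and PRDM9 had none. PRDM7 and PRDM9 are near-identical copies, and their counts are given as uncertain because how reads matching both were placed is not stated. The median was 2 distal regions in these 6 genes and 1 in the 9 members, with 0 over all coding genes.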

How the data were processed

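EP300 ChIP-seq peaks of 2 samples were used, and 1 input sample was not analysed here by itself. Per the labels, crosslinked and sonicated chromatin was sent to a company for libraries. GRCh38 was the build and fastp 0.19.11 a tool of unstated role, per the submitters' processing notes. How reads were aligned and which caller and cutoff were used is not given in the sources used here. By the names in the deposited tables, the authors called peaks per sample against input and annotated them with ChIPseeker. Per the file headers, each row holds a summit with a signal value, the fold enrichment (a ratio), and -log10 p-values and q-values. The deposited score, 10 times the -log10 q-value rounded down, was not used.

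Rows of equal interval were joined, keeping the highest fold enrichment, on chromosomes 1 to 22 and X. Peaks of the replicates that overlap by 1 bp formed a region, with the gene of its strongest peak and its smallest distance. Distances follow the authors' annotation; gene extents and promoter sequences are RefSeq GRCh38.p14. All 19974 coding genes gave the background. The merging was tested on simulated intervals. Tools were Python 3.11.15, pandas 2.3.3 and scipy 1.17.1. The members and lists were chosen with earlier results of these data known. Named were all members, other family genes (1 is not reported here), up to 4 cofactor genes and up to 4 genes with as many distal regions as PRDM16; regions were shown by rank. No test was made. Alternatives changed the replicates, the peak threshold, the overlap, the distances, the gene assignment and the joining distance. Depth is unknown, and so is the precision it gives.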

Additional observations from a re-analysis of the deposited data

How the results depend on the processing

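Of the 21 distal regions, 8 were left at a fold enrichment of at least 5, 11 where the -log10 q-value reached 5 and 10 when distal meant over 10 kb. Counting all regions inside the 9 gene bodies over 3 kb from the 5' end gave 61, of which 54 were at PRDM16. Measuring assigned regions from the RefSeq 5' end, an alternative chosen after seeing the data, gave 32. Leaving out a replicate gave 30 to 31 distal peaks, 24 of them at PRDM16 either way, because no recurrence was then required. PRDM16 kept 4 distal regions at the fold enrichment limit and 7 at the q-value limit. A promoter region was left at 5 of the members at a fold enrichment of at least 5, and at 8 to 9 when a replicate was left out. Shares over all coding genes are given at the main setting only, so these drops are not compared with the series. The share of member peaks seen in both replicates, averaged over the 2 lists, was 77.9% (SD 4.08). Both shares come from the same overlap, so this SD is not a spread of independent measurements. The average became 84.4% at the fold enrichment limit and 85.0% at the q-value limit. With an overlap of at least 50% of the shorter peak it was 71.4%. The cause of these differences was not tested beyond the construction of each setting. No paired analysis was possible because the EP300 samples form 1 group and no input table is used here. Read depth is unknown, and its effect on weak regions was not tested.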

Other observations

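Of 12 genes of PRDM partner proteins, which include corepressors, chromatin enzymes and bHLH transcription factors, 10 had a promoter region and 4 a distal region, against 67.9% and 20.3% of coding genes. Of the 2 without a promoter region, 1 had no assigned peak in either replicate, though 1 region under another name overlapped its body. CBFA2T3, which encodes a corepressor of the ETO family, held 7 of the 10 distal regions and had 6 promoter regions. CTBP2, CBFA2T2 and PTF1A had 1 distal region each. CBFA2T3 had 14 regions in a body of 102 kb, a density of 13.7 per 100 kb. No density over coding genes of that length is given here, so this value is not compared with that of PRDM16.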
